A study of Mus musculus with 12 samples.

Results

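The genes described here are 9 ligands through which other cells restrain or help T cells, of the 31053 genes measured. They were listed by name, with earlier results of these data known, and each was found in the data by its symbol: Cd274 (PD-L1), Pdcd1lg2 (PD-L2), Cd80, Cd86, Cd40, Lgals9 (galectin-9), Nectin2 (CD112), Pvr (CD155) and Icosl. The study used single-cell RNA sequencing (10x Genomics 3' v3) of CD45+ cells that were isolated with magnetic beads on day 17 from MC38 tumors. MC38 is a colon carcinoma line of C57BL/6 origin, grown here under the skin of C57BL/6 mice. The 12 samples form 4 groups of 3, namely Vehicle for 7 days, Vehicle for 16 days, and PF-06821497, an inhibitor of the histone methyltransferase EZH2 (EZH2i), at 100 mg/kg daily for 7 or for 16 days. All animals carried the same tumor line, and the labels of these samples name no other treatment.

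A T cell that meets its antigen also reads accessory signals from the surface of the presenting cell. CD80 and CD86 engage CD28, which helps activation, and CTLA-4, which restrains it. PD-L1 and PD-L2 engage PD-1, an inhibitory receptor, and PD-L1 can also bind CD80 on the same membrane. Galectin-9 is a ligand of TIM-3, CD155 and CD112 are ligands of the activating receptor CD226 and the inhibitory receptor TIGIT, CD155 also binds CD96, and the ICOS ligand supports follicular and regulatory T cells. CD40 differs from the others in that it receives the signal: CD40L on helper T cells engages it on dendritic cells, B cells and macrophages.

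Counts of unique molecular identifiers (UMIs) were held in 1 matrix for all samples, with 140639 barcodes whose suffixes number the libraries 1 to 12. The labels give no suffix for a sample, and groups were taken from labels alone, never from the order or size of libraries, so EZH2i was not compared with Vehicle here. Values are given over the 12 libraries as the lowest, the median and the highest. Depth ranged from 21649947 to 158760328 UMIs per library, and 128912 cells passed the limits on genes and mitochondrial UMIs (91.7% of the barcodes). Libraries 1 to 6 each held at least 10793 UMIs of the Y-linked genes Ddx3y, Eif2s3y, Kdm5d and Uty, and libraries 7 to 12 held 0, although the study's methods describe female mice. Library 4 also stood apart in its cells, with 1110 of the 2776 neutrophils and 38 of the 6621 T or NK cells. Because of the Y-linked UMIs and library 4, the main counts of genes below are also given without library 4 and for libraries 7 to 12 alone. Of the latter only 2 had 20 cDC1. In addition, 2261 barcode sequences were present in more than 1 library, and the number to be found by chance was not computed. These barcodes were left out in a separate alternative.

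Cells were assigned to classes by UMIs of lineage genes that do not include any of the ligands, and 100487 cells (78.0% of those kept) fell into 1 class. These were 81352 macrophages, 7173 monocytes, 6621 T or NK cells, 2776 neutrophils, 1383 mature dendritic cells (DCs, gated on Ccr7, Fscn1, Ccl22, Cacnb3 and Nudt17), 618 type 1 conventional DCs (cDC1), 324 B cells, 190 plasmacytoid DCs (pDCs) and 50 Cd209a+ DCs. Among these 9 classes, by pooled level, markers that were not used for gating were highest in their own class for all 4 genes in macrophages (Apoe and Ms4a7 among them), neutrophils (Acod1, Clec4e), pDCs, B cells (Ighm, Pax5) and T or NK cells (Nkg7, Lck). They were so for 3 of 4 in mature DCs (Il4i1, Relb and Socs2; Samsn1 was higher in neutrophils), for all 3 in monocytes, and for only 2 of 4 in cDC1 (Naaa and Wdfy4) and in Cd209a+ DCs. Of the mature DCs, 2.31% held a UMI of Col1a1, a collagen gene of stromal cells, against 1.91% of macrophages, but the pooled level was 82.6 CPM against 4.01 CPM. A UMI of Ptprc, the gene of CD45, was found in 52.8% of mature DCs, the lowest share of the 9 classes. It was found in 80.4% of macrophages, 86.7% of T or NK cells, 68.0% of neutrophils and 56.5% of B cells. T or NK cells, neutrophils and B cells had a lower median depth than mature DCs. The cause of the low share was not tested. With mature DCs limited to those with Ccr7 or Ccl22 and without Col1a1, the 6 ligands described below as higher than in macrophages were again higher in 12 of 12 libraries. Depth differed among the classes, with a median of 1203 UMIs in neutrophils, 1317 in B cells, 2601 in T or NK cells, 3158 in mature DCs, 4232 in monocytes, 4656 in cDC1 and 5620 in macrophages.

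A level is the sum of a gene's UMIs over the cells of a class in 1 library, as CPM (a count scaled to 1000000) of all UMIs of these cells, where the library had at least 20 of them. Because it is a share of RNA, it does not tell how many molecules a cell holds. The 3 genes C1qa, C1qb and C1qc, which macrophages make in abundance, served as a measure of free or misassigned macrophage RNA. Their summed level in other classes was a median of 1.92% of the macrophage level in mature DCs (0.649 to 11.8% over libraries), 1.24% in cDC1 (0.679 to 9.185%) and 2.25% in T or NK cells (1.29 to 14.8%). It was 5.19% in neutrophils (2.39 to 26.4%) and 9.16% in monocytes (4.90 to 21.2%), which were themselves separated from macrophages by these genes. Over 4 libraries each, it was 8.85% in B cells (3.95 to 34.0%) and 3.2% in pDCs (1.45 to 9.71%). Adjacent classes in an order are said to differ only where the sign of the difference was the same in every library that had both, with at least 6 such libraries.

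Across the 6 classes that at least 6 libraries held (mature DC, cDC1, monocyte, macrophage, neutrophil, T or NK cell), 6 of the 9 genes had their highest median level in mature DCs. These were Pdcd1lg2, Cd86, Cd40, Nectin2, Pvr and Icosl. For Cd86, Cd40 and Nectin2 mature DCs were above the next class in every library with both. For Pdcd1lg2, Icosl and Pvr they were so in 10, 9 and 6 of 12 libraries, which is not beyond the spread. Over all 9079 genes with at least 10 CPM in the median of a class, 15.1% were highest in mature DCs. Cd274 and Cd80 were highest in neutrophils, the highest class of 15.6% of all genes, and Lgals9 in macrophages, the highest class of 16.8%. The count of 6 was the same without library 4 and in libraries 7 to 12, and became 7 when UMIs were pooled over libraries, since Cd80 then was highest in mature DCs.

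**Figure D1:**
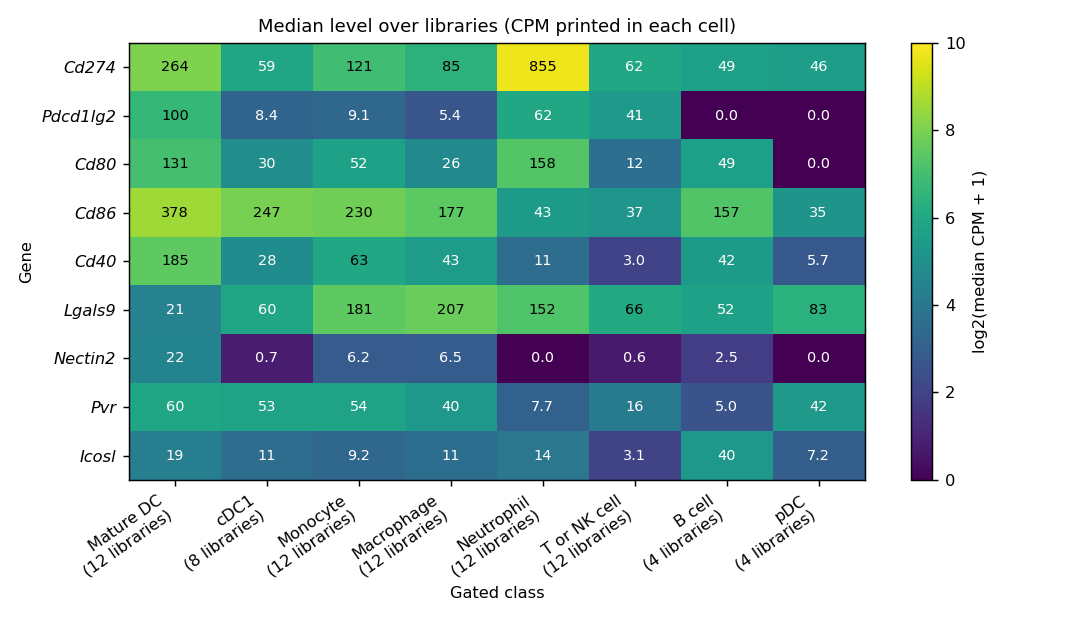
Median level of the 9 genes (rows) in 8 gated classes (columns) over the libraries with at least 20 cells, as CPM printed in each field and as log2(CPM + 1) in color. The mature DC column is high for Cd86, Cd274 and Cd40 and low for Lgals9, and the highest value of the neutrophil column is that of Cd274 at 855 CPM. B cells and pDCs rest on 4 libraries each.

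Cd274, the gene of PD-L1, lies on chromosome 19 at 29367455-29388095 on the plus strand (GRCm38, GENCODE M21), and an antisense gene overlaps it. Its level in neutrophils was 258 CPM in the lowest library, 855 in the median and 1367 in the highest. In mature DCs it was 126, 264 and 410 CPM, in monocytes 58.9, 121 and 206 CPM, and in macrophages 44.8, 85.3 and 137 CPM. Neutrophils were above mature DCs, mature DCs above monocytes and monocytes above macrophages in all 12 libraries, so that these 3 steps of the order were each beyond the spread.

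T or NK cells had 38.6, 62.2 and 76.5 CPM of Cd274, and cDC1 had 34.6, 58.8 and 133 CPM over 8 libraries. Neither was separated from its neighbor in the order. Macrophages were above T or NK cells in 10 of 12 libraries, and T or NK cells above cDC1 in 4 of 8. The T or NK level was a median of 75.2% of the macrophage level, against 2.25% for C1q, and was above the C1q percentage in all 12 libraries.

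Counted per cell instead of per UMI, the order of neutrophils and mature DCs depended on pooling. With cells pooled over libraries, a neutrophil held 1.82 UMIs of Cd274 on average, a mature DC 1.22, a monocyte 0.681 and a macrophage 0.616. Within libraries the mean per cell was a median of 1.07 in neutrophils (0.417 to 4.03) and 1.49 in mature DCs (0.363 to 4.44), and mature DCs were higher in 7 of 12, so that these classes were not separated per cell. With each cell thinned to 1000 UMIs and cells pooled over libraries, 47.3% of neutrophils had a UMI of Cd274 (exact binomial 95% interval 44.9 to 49.7%, counting error only, as for all intervals here), against 22.7% of mature DCs (20.4 to 25.1%), 11.5% of monocytes, 8.47% of macrophages (8.28 to 8.67%) and 6.55% of T or NK cells. Within libraries that kept 20 thinned cells of a class, the share was a median of 43.3% in neutrophils (14.7 to 56.3%) and 19.7% in mature DCs (15 to 32.6%), with neutrophils higher in 10 of 11. Thinning left out 1081 of the 2776 neutrophils. Unthinned, the shares were 48.2% of neutrophils, 51.8% of mature DCs and 33.9% of macrophages. Without library 4 the median in neutrophils was 839 CPM.

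Neutrophils were few in most libraries, and the number of UMIs behind a value differed widely. The lowest level, 258 CPM in library 6, rested on 20 UMIs of Cd274 in 48 cells, and the highest, 1367 CPM in library 5, on 40 UMIs in 30 cells. Libraries 4 and 8 held 1710 and 1435 UMIs and had 1152 and 984 CPM. In spite of the high level, neutrophils supplied a median of 2.44% of all Cd274 UMIs in a library (0.212 to 17.2%, the last in library 4), because macrophages were so many. Macrophages supplied a median of 64.9% (35.6 to 79.8%), and cells that fell into no class a median of 19.5%.

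Neutrophils were also divided by Retnlg, a gene of mature circulating neutrophils, a division added after the levels were seen. Over the 9 libraries in which both kinds reached 20 cells, those without a UMI of Retnlg had a median of 930 CPM of Cd274 and those with at least 2 had 870 CPM. The former were higher in 4 of 9 libraries, which is not beyond the spread.

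Library 10 had the lowest Cd274 level in mature DCs (126 CPM), monocytes (58.9 CPM) and macrophages (44.8 CPM), and library 5 the highest in monocytes, macrophages and neutrophils. In T or NK cells library 9 was the lowest, at 38.6 CPM.

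Pdcd1lg2 encodes PD-L2, the other ligand of PD-1, and begins 22823 bases after the end of Cd274 on the same strand of chromosome 19 (29410919-29471161). Mature DCs had 71.2, 99.6 and 125 CPM, neutrophils 0, 62.2 and 206 CPM, T or NK cells 9.87, 40.6 and 65.9 CPM, monocytes 5.30, 9.15 and 24.5 CPM, cDC1 4.32, 8.41 and 34.2 CPM, and macrophages 1.46, 5.43 and 18.5 CPM. No 2 adjacent classes in this order differed in every library, but mature DCs were above macrophages and above T or NK cells in 12 of 12. The neutrophil values came from 0 to 105 UMIs per library, and libraries 5 and 6, with 30 and 48 neutrophils, had 0. The cDC1 values came from 1 to 8 UMIs per library.

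Within T or NK cells, Pdcd1lg2 was above the macrophage level in 12 of 12 libraries, at a median of 576% of it, where C1q was at 2.25%. When T and NK cells were separated, again after the levels were seen, NK cells had a median of 67.2 CPM and T cells 46.1 CPM in the 6 libraries with at least 20 of both, and NK cells were higher in 5 of 6. The NK values came from 5 to 24 UMIs per library. The 327 NK cells held no UMI of Cd80 or Nectin2, which allows up to 0.917% of NK cells with a UMI of each (3 counts of the total). T cells held Pdcd1lg2 in 3.55% of cells thinned to 1000 UMIs (3.06 to 4.10%).

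The PD-1 ligands differed in their balance. The number of Cd274 UMIs per UMI of Pdcd1lg2 (each UMI is 1 captured 3' end, whatever the length of the transcript) was a median of 2.54 in mature DCs (1.23 to 4.09 over libraries) and 1.63 in T or NK cells (0.763 to 4.67). It was 14.0 in macrophages (5.51 to 42.8), 10.8 in monocytes (4.10 to 29.5) and 12.7 in the 10 libraries whose neutrophils held Pdcd1lg2 (4.06 to 31). In cDC1 it was 6.58 (3.6 to 28 over 8 libraries). The range of mature DCs did not overlap that of macrophages, but overlapped those of neutrophils, cDC1 and T or NK cells.

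**Figure D2:**
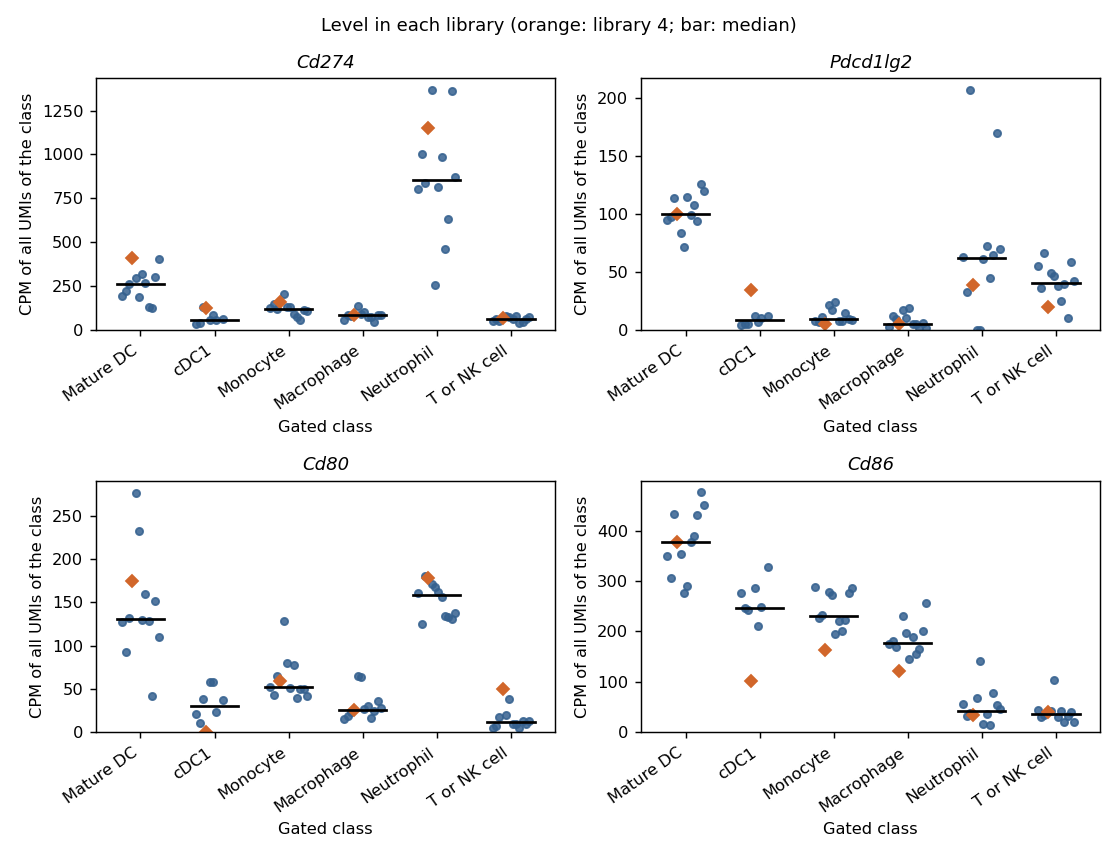
Level of Cd274, Pdcd1lg2, Cd80 and Cd86 in each library (points; library 4 in orange) in 6 gated classes, as CPM of all UMIs of the class on linear axes from 0, with the median as a bar. For Cd274 the neutrophils reach from 258 to 1367 CPM and overlap the range of mature DCs, although they were higher within each library, and they are among the lowest for Cd86, from 14.9 to 142 CPM.

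Cd80 and Cd86, the ligands of CD28 and CTLA-4, were distributed differently although both lie on chromosome 16 (Cd80 at 38455561-38496335 on the plus strand, Cd86 at 36603869-36666081 on the minus strand). Cd80 was at 125, 158 and 181 CPM in neutrophils and at 42.1, 131 and 277 CPM in mature DCs, with neutrophils higher in 8 of 12 libraries, so that the order of these classes was not beyond the spread. Monocytes had 39.3, 51.9 and 128 CPM, cDC1 0, 30.0 and 58.2 CPM, macrophages 14.8, 26.1 and 65.3 CPM, and T or NK cells 4.92, 11.5 and 49.8 CPM. Neutrophils were above monocytes in 12 of 12 libraries and monocytes above cDC1 in 8 of 8. Counted per cell and pooled over libraries, neutrophils held 0.291 UMIs of Cd80, mature DCs 0.738, monocytes 0.338 and macrophages 0.235. By this measure neutrophils were below mature DCs and monocytes.

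Cd86 reached 276, 378 and 476 CPM in mature DCs, 102.5, 247 and 327 CPM in cDC1, 164, 230 and 288 CPM in monocytes, and 122, 177 and 257 CPM in macrophages. It was low in neutrophils, with 14.9, 42.7 and 142 CPM, and in T or NK cells, with 19.8, 36.5 and 104 CPM. Mature DCs were above cDC1 in all 8 libraries, monocytes above macrophages in 12 of 12 and macrophages above neutrophils in 12 of 12, whereas cDC1 and monocytes were not separated (5 of 8). The number of Cd86 UMIs per UMI of Cd80 was 0.299 in neutrophils (0.0952 to 0.846), the lowest of the 6 classes, and 6.46 in macrophages (3.09 to 11.8), and was 4.10 in monocytes, 2.90 in mature DCs and 8.89 in the 7 libraries with Cd80 in cDC1.

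At equal depth and pooled over libraries, 29.3% of mature DCs (26.8 to 31.9%), 20.7% of cDC1, 20.1% of monocytes and 16.9% of macrophages had a UMI of Cd86, against 3.84% of neutrophils and 4.21% of T or NK cells. For Cd80 these shares were 19.0% in mature DCs (16.9 to 21.2%), 14.3% in neutrophils (12.7 to 16.0%), 5.59% in monocytes, 4.12% in macrophages and 1.43% in T or NK cells. The pooled shares weight libraries by their cells, and 468 of the 1383 mature DCs came from library 6 and 1110 of the 2776 neutrophils from library 4. As the median over libraries, the Cd80 share was 14.5% in mature DCs (5 to 37.6%) and 12.2% in neutrophils (6.80 to 18.1%), with neutrophils higher in 4 of 11, so that these classes were not separated by share either.

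Cd40 (chromosome 2, 165055627-165072948, plus strand) was at 103, 185 and 262 CPM in mature DCs, above the next class, monocytes with 19.6, 63.4 and 96.5 CPM, in 12 of 12 libraries. Macrophages had 28.1, 43.4 and 66.6 CPM, cDC1 19.0, 27.9 and 61.5 CPM, neutrophils 0, 11.0 and 51.6 CPM, and T or NK cells 0, 3.02 and 17.6 CPM. In T or NK cells the level was a median of 6.67% of that in macrophages, against 2.25% for C1q, and was above the C1q percentage in 8 of 12 libraries. The share of thinned cells with a UMI was 16.3% in mature DCs, 4.54% in macrophages and 0.537% in T or NK cells.

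Lgals9 (chromosome 11, 78962974-78984946, minus strand) had another order. Macrophages had 169, 207 and 266 CPM, monocytes 146, 181 and 275 CPM, neutrophils 76.9, 152.5 and 271 CPM, T or NK cells 40.6, 66.3 and 101 CPM, cDC1 34.6, 59.8 and 95.6 CPM, and mature DCs 9.37, 20.7 and 70.1 CPM. Mature DCs were below each of the 5 other classes in every library with both. Their level was a median of 10.4% of that in macrophages, where C1q was at 1.92%. Neutrophils were above T or NK cells in 12 of 12 libraries, while the steps from macrophages to monocytes (10 of 12) and from monocytes to neutrophils (10 of 12) were not beyond the spread.

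Of the ligands of TIGIT, CD226 and CD96, Nectin2 had the fewest UMIs of the 9 genes, 5131 in all cells kept, and Pvr had 34020. Nectin2 (chromosome 7, 19716644-19750483, minus strand, overlapped by an antisense gene) was at 9.37, 21.6 and 38.2 CPM in mature DCs, from 2 to 29 UMIs per library. This was above macrophages, with 5.28, 6.53 and 8.44 CPM, in 12 of 12 libraries. Monocytes had a median of 6.23 CPM, and cDC1, T or NK cells and neutrophils had medians of 0.689, 0.650 and 0 CPM. All 2776 neutrophils together held 7 UMIs.

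Pvr (chromosome 7, 19903578-19921160, minus strand, overlapped by an antisense gene and a processed pseudogene) was at 37.2, 59.9 and 82.2 CPM in mature DCs, 35.9, 53.5 and 69.9 CPM in monocytes, 26.5, 53.1 and 86.4 CPM in cDC1 and 28.6, 39.5 and 53.3 CPM in macrophages, with no adjacent pair separated. T or NK cells had a median of 16.2 CPM and neutrophils of 7.71 CPM. Mature DCs were above both of these in 12 of 12 libraries.

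Icosl (chromosome 10, 78069302-78083913, plus strand) was low in all of the 6 classes. Its median was 18.6 CPM in mature DCs (10.0 to 59.3 CPM, from 3 to 45 UMIs per library). The other medians were 14.5 in neutrophils, 11.2 in macrophages (9.73 to 16.7 CPM), 11.1 in cDC1, 9.18 in monocytes and 3.12 in T or NK cells. No adjacent pair differed in every library. Mature DCs exceeded T or NK cells in 12 of 12.

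**Figure D3:**
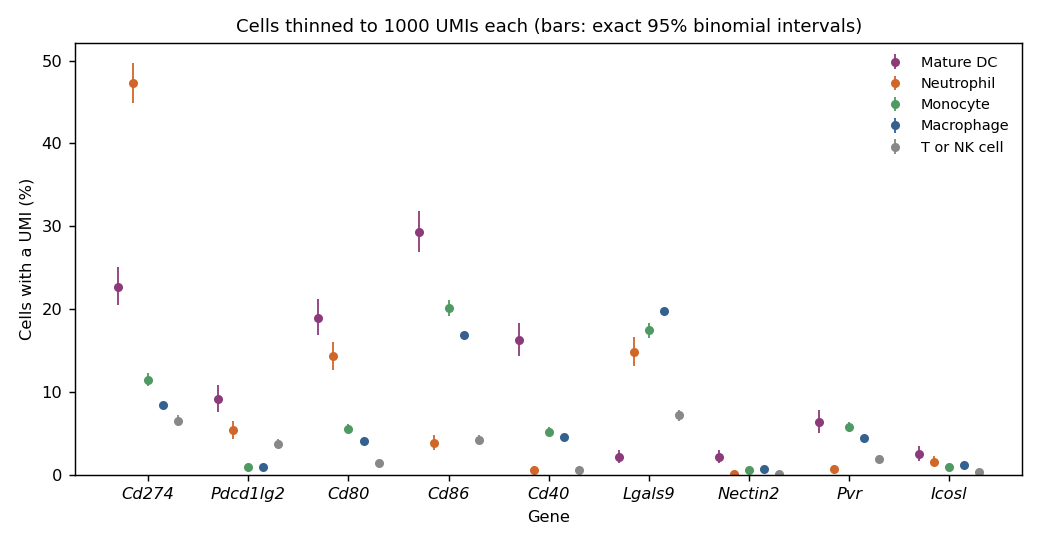
Share of cells with at least 1 UMI of each gene, in percent, after each cell was thinned to 1000 UMIs, in 5 gated classes pooled over libraries. Bars are exact 95% binomial intervals (counting error only). Cd274 reaches 47.3% in neutrophils and 22.7% in mature DCs, and Lgals9 is higher in macrophages (19.7%) than in mature DCs (2.1%).

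Mature DCs were then compared with macrophages, the most abundant class. As the median over 12 libraries of the log2 ratio of (CPM + 1), mature DCs exceeded macrophages by 4.07 for Pdcd1lg2 (2.19 to 5.35), 2.24 for Cd80 (0.744 to 3.02), 1.84 for Cd40 (1.43 to 3.18), 1.68 for Cd274 (0.891 to 2.26), 1.54 for Nectin2 (0.291 to 2.07) and 1.00 for Cd86 (0.489 to 1.63). These 6 were higher in every library, as were 14.9% of the 7925 genes with at least 10 CPM in either class. With cells thinned to 1000 UMIs Nectin2 was higher in 10 of 12 libraries, and with the mean of each cell's CPM in 11 of 12, so that 5 of the 6 kept 1 sign in every library there. Without library 4 the count was again 6, beside 15.1% of all genes, and it was 7 in libraries 7 to 12, where Icosl was added and where 18.9% of all genes were higher in each of these fewer libraries. Pvr, at 0.46, and Icosl, at 0.65, were higher in 10 of 12 libraries. Counted per cell and pooled over libraries, Pvr was lower in mature DCs, at 0.263 UMIs against 0.295 in macrophages. The other genes kept their direction per cell, with Cd86 at 1.65 against 1.32 UMIs. Lgals9 was lower in every library, by a median of -3.25 (-4.35 to -1.81).

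Against the same macrophages, neutrophils exceeded them in every library for 2 of the 8 genes at or above 10 CPM in either class, Cd274 by 3.46 (1.53 to 3.95) and Cd80 by 2.46 (1.37 to 3.36). This comparison was added after the levels were seen, and 8.87% of all 7700 genes behaved so. Cd86 was lower in neutrophils in every library, by a median of -1.97, and so was Pvr, by -2.28. Per cell and pooled over libraries, the Cd80 values were closer, at 0.291 UMIs in neutrophils and 0.235 in macrophages. For Cd274 the mean per cell was higher in macrophages in 2 of 12 libraries. Without library 4 the count was again 2, beside 9.1% of all genes. In libraries 7 to 12 the count was 3, as Pdcd1lg2 was then higher in all 6, beside 17.1% of all genes.

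B cells, of which 146 of 324 came from library 10, reached 20 cells in only 4 libraries. Pooled over all libraries they held 116 UMIs of Cd86 (202 CPM, exact Poisson interval 167 to 242), 28 of Cd274 (48.7 CPM, 32.4 to 70.4), 25 of Cd40 (43.5 CPM, 28.1 to 64.2) and 18 of Icosl (31.3 CPM, 18.6 to 49.5). As a percentage of the macrophage level, Cd86 and Cd274 were above C1q in 4 of the 4 libraries, and Cd40 and Icosl in 3. In the 4 libraries Icosl was at 0 to 53.2 CPM with a median of 39.7, on at most 10 UMIs per library, and was above the mature DCs of the same library in 3 of 4. Summed over these 4 libraries the level was 41.0 CPM on 13 UMIs in B cells (21.8 to 70.05), and 10 of these UMIs came from library 10. Mature DCs had 12.1 CPM on 28 UMIs there (8.06 to 17.5). These intervals did not overlap, but 4 libraries are fewer than the 6 asked for here. Pooled over all libraries, mature DCs had 26.25 CPM of Icosl (22.4 to 30.6), which lies inside the B cell interval of 18.6 to 49.5. Without library 10 the pooled B cell level was 21.4 CPM. Poisson and binomial intervals cover counting error only.

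The 50 Cd209a+ DCs, never more than 14 in a library, could only be pooled. They held 58 UMIs of Cd86 (192 CPM, 146 to 248), 35 of Pvr (116 CPM, 80.6 to 161), 30 of Cd40 (99.2 CPM, 66.9 to 142) and 26 of Cd80 (86.0 CPM, 56.2 to 126). The Pvr interval lay above the pooled level of the mature DCs, 57.9 CPM, but no library had enough of these cells for a comparison within it. In pDCs the pooled levels were 85.03 CPM for Lgals9, 40.8 for Pvr, 33.7 for Cd274 and for Cd40, and 5.32 for Pdcd1lg2 and for Cd80, the last 2 on 3 UMIs each. Of the Pdcd1lg2 UMIs 2 came from library 1, without which the level was 1.97 CPM. As a percentage of the macrophage level in the 4 libraries with 20 pDCs, Lgals9, Pvr and Cd274 were above C1q in 4. Cd40 was so in 2, and Pdcd1lg2 and Cd80 in 1 each.

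Keratin-positive cells without Ptprc could not be described. Only 21 UMIs of Krt8 and 168 of Krt18 were present in all cells kept. No cell met the gate of at least 2 UMIs over both keratins and none of Ptprc, and 0 of 128912 cells allows a share of up to 0.00233%. Of the 158 cells with a keratin UMI, 18 lacked Ptprc, and these held 18 UMIs of Lgals9, 19 of Cd86 and 12 of Cd274.

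A set of 105 cells held at least 3 UMIs over at least 2 of Col1a1, Col3a1 and Sparc, matrix genes of stromal and mesenchymal cells. They had no UMI of Ptprc or Ccr7 and at most 1 UMI of the T, NK, B, pDC, cDC1, neutrophil and monocyte or macrophage genes. The mature DC genes other than Ccr7 were not limited, so that a cell of this class could also be counted as a mature DC. This class was chosen after the data were seen, and only 2 libraries had 20 of these cells. At a median of 10757 UMIs, they had 41.8 CPM of Cd274 (31.3 to 54.6), 49.6 of Lgals9 (38.2 to 63.5), 17.3 of Pvr (10.9 to 26.3) and 16.6 of Nectin2 (10.2 to 25.3). Of the 53 UMIs of Cd274, 32 came from 28 cells of library 5, without which the level was 24.6 CPM. Cd80 and Icosl had 1 UMI each and Pdcd1lg2 had 2. By pooled level the Nectin2 interval was above the 6.53 CPM of macrophages and included the 22.1 CPM of mature DCs, a class that may share cells with this one.

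Ligands were also looked at together in the same cell, in cells thinned to 1000 UMIs and pooled over libraries. Among 1286 mature DCs, 29.9% held a PD-1 ligand (Cd274 or Pdcd1lg2), 41.1% a CD28 ligand (Cd80 or Cd86) and 13.7% both. Of neutrophils 49.1% held a PD-1 ligand, 17.4% a CD28 ligand and 9.03% both, and of macrophages 9.30%, 20.2% and 2.103%. In mature DCs a CD28 ligand was found in 45.7% of the cells with a PD-1 ligand and in 39.1% of those without. In neutrophils these were 18.4% and 16.5%, and in macrophages 22.6% and 19.98%. At least 3 of the 9 genes were found in 9.88% of mature DCs, 3.60% of neutrophils, 2.55% of monocytes, 1.70% of macrophages, 0.976% of cDC1 and 0.134% of T or NK cells. No gene of the 9 was found in 33.9% of mature DCs, 35.6% of neutrophils, 52.5% of macrophages and 77.2% of T or NK cells.

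Macrophages were then divided by Cxcl9, an interferon-gamma-induced chemokine that attracts CXCR3+ T cells, and Arg1, the arginase of suppressive macrophages. Those with at least 2 UMIs of Cxcl9 and none of Arg1 numbered 9450, and those with the reverse numbered 23695, with median depths of 5005 and 7105 UMIs. Both were present in every library, with at least 60 and 689 cells.

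Cd40 differed most. It was at 60.5, 70.2 and 96.0 CPM in the Cxcl9+ cells and at 21.3, 31.5 and 43.7 CPM in the Arg1+ cells, so that the ranges did not overlap. The log2 difference was 1.11 in the median (0.851 to 1.84), positive in 12 of 12 libraries. Cd86 was at 144, 220 and 296 CPM against 123, 157 and 254 CPM, a difference of 0.43 (0.220 to 0.710), again positive in 12 of 12. Icosl was at 11.7, 14.9 and 23.6 CPM against 8.27, 9.95 and 13.4 CPM, a difference of 0.61 (0.174 to 1.02), also in 12 of 12. With cells thinned to 1000 UMIs the Icosl difference was 0.28, positive in 9 of 12, and that of Cd86 was 0.42, positive in 11 of 12.

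Thus 3 of the 7 genes at or above 10 CPM were higher in Cxcl9+ macrophages in every library, as were 9.15% of all 7457 genes, and 0 were higher in Arg1+ macrophages in every library, as were 13.8%. With cells thinned to 1000 UMIs, only Cd40 of these 3 was higher in every library. The counts were 3 and 0 without library 4, beside 10.0% and 15.1% of all genes, and 4 and 0 in libraries 7 to 12, with Lgals9 added, beside 16.2% and 18.5% of all genes there. Lgals9 was higher in the Cxcl9+ cells in 11 of 12 libraries by a small margin (0.21).

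Cd274 did not separate these macrophages. It was at 62.01, 79.2 and 133 CPM in Cxcl9+ cells and at 55.7, 89.5 and 149 CPM in Arg1+ cells, with a median difference of -0.0074 (-0.681 to 0.501) and the Cxcl9+ cells higher in 6 of 12 libraries. Cd80 (4 of 12 higher, median difference -0.04), Pvr (4 of 12, -0.055) and Nectin2 (6 of 12, 0.025) likewise showed no common direction. Pdcd1lg2, at medians of 7.49 and 4.92 CPM, was higher in Cxcl9+ cells in 10 of 12 libraries.

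**Figure D4:**
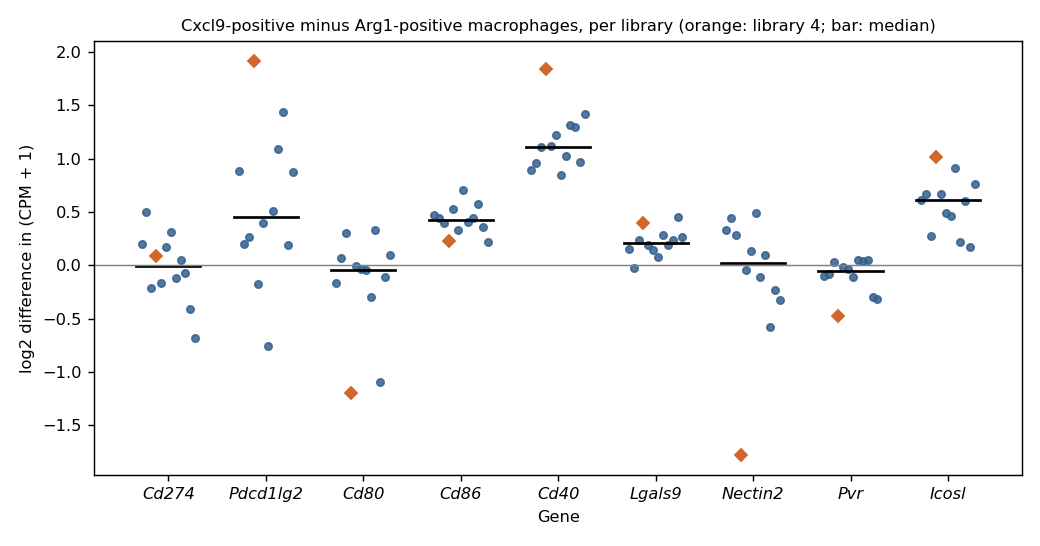
Difference between Cxcl9+ Arg1- and Arg1+ Cxcl9- macrophages for the 9 genes, as log2 of (CPM + 1), 1 point per library (library 4 in orange), with the median as a bar and a line at 0. Cd40 (0.851 to 1.84), Cd86 and Icosl lie above 0 in all 12 libraries, and Cd274 is spread around 0.

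Sequences around RefSeq starts of the genes were examined for the motifs of interferon signaling, since the macrophages were divided by an interferon-induced gene. RefSeq promoters (GRCm38.p6, 250 bases before to 50 after the start) were at hand for 6 of the 9 genes: Cd274, Pdcd1lg2, Cd80, Lgals9, Nectin2 and Icosl. Cd86, Pvr and Cd40, the gene that differed most between these macrophages, had no entry and were not searched. The motifs searched on both strands were the gamma-activated site (GAS), TTCNNNGAA, found in 8.30% of 32841 promoters, and the interferon-stimulated response element (ISRE), GAAANNGAAA, found in 3.44%. None of the 6 windows held the GAS letters. Those of Cd80 (chr16:38458683-38458982) and Nectin2 (chr7:19749524-19749823) lay inside the gene as GENCODE M21 places it. For these genes the bases before that start were not searched. The ISRE letters were present in Lgals9 only, at 2 places on the reverse strand, at bases -55 to -46 and 16 to 25 counted from the start. The promoter of Lgals9 (chr11:78984875-78985174, minus strand) is shown for these matches, in capitals, and that of Cd274 (chr19:29367188-29367487, plus strand) for comparison, with none.

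Lgals9: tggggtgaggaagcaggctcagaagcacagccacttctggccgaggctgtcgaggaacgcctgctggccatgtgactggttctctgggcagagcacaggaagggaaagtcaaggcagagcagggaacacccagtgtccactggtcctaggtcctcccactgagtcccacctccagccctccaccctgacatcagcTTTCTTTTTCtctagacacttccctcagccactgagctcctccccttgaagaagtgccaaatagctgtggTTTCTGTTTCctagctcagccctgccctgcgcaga

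Cd274: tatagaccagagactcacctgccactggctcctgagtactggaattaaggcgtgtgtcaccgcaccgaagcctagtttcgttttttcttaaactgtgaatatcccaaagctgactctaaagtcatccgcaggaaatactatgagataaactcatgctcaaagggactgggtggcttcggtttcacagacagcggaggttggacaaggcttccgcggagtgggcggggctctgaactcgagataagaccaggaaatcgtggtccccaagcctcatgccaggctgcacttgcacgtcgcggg

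A match is a run of letters and not a binding site, and a missing match says only that these letters are not in this window.

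The genes most like each ligand were taken as the 3 with the highest Pearson correlation of log2(CPM + 1) over the 76 class-by-library sums with at least 20 cells, among 9736 genes. These points share libraries and classes, so that r is a description. For Cd274 they were Pim1 (r = 0.886), Crispld2 and Asprv1 (0.871), and for Cd86 they were Anxa4 (0.857), Cd83, a surface protein of activated DCs (0.849), and Nuak2 (0.776). Cd40 was most like Cxcl16 (0.834), a chemokine, followed by Bcl2a1a and Guca1a. Lgals9 was most like Slc11a1 (0.816), a metal transporter of phagosomes, and Lyz2 (0.812), lysozyme, with Sdcbp (0.809). Pdcd1lg2 was most like Cdc42ep3 (0.812), Ostf1 and Dvl1, Cd80 like Marcksl1 (0.840), Pde4b and Gm34084, Nectin2 like Efemp2 (0.763), Adgrg6 and Fxyd2, Pvr like Tfg (0.858), Sqle and Nav1, and Icosl like Relt (0.629), Nuak2 and Plin3. Among the 9 themselves, the highest r were those of Cd40 with Nectin2 (0.731), Cd274 with Cd80 (0.705) and Cd86 with Cd40 (0.691), and the lowest was that of Lgals9 with Pdcd1lg2 (-0.353).

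Of 13 other ligands of the B7, TNF and nectin families and their relatives, 6 were highest in mature DCs: Tnfsf4 (OX40L, 17.3 CPM in the median), Tnfsf9 (4-1BBL, 57.7 CPM), Cd70 (37.6 CPM), Nectin1 (67.3 CPM), Ceacam1 (28.7 CPM) and Nectin3 (0.556 CPM). Of the 8 with at least 10 CPM in the median of a class, 5 were highest in mature DCs, beside 15.1% of all genes past the same limit. Vsir (VISTA) and Tnfsf14 (LIGHT) were highest in neutrophils, at 200 and 23.5 CPM, Cd276, Tnfsf18 and Tnfrsf14 in macrophages, at 9.17, 0.324 and 1.83 CPM, and Cd48 in cDC1, at 189 CPM. Vtcn1 had 1 UMI in all cells kept. Tnfsf9, the ligand of 4-1BB, ranged from 17.1 to 114 CPM in mature DCs and had a median of 19.8 CPM in macrophages.

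The receptors of the ligands, together with Cd40lg, which encodes the ligand of CD40, were examined in T or NK cells. Their median levels there were 262 CPM for Pdcd1 (112 to 473), 178 for Cd28 (106 to 390), 216 for Ctla4 (112 to 363), 317 for Icos (211 to 489), 69.8 for Cd96, 64.8 for Havcr2 (TIM-3), 57.8 for Cd226, 8.34 for Cd40lg and 6.58 for Tigit. Cd40lg was at 1.51 CPM in its lowest library and Tigit at 0. Of these 9 genes, 8 were highest in T or NK cells, a count given here without the share of all genes. Havcr2 was the exception, with medians of 221 CPM in cDC1, 201 in monocytes and 111 in macrophages.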

How the data were processed

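CD45+ cells of MC38 tumors, in 12 samples, were profiled with 10x Genomics 3' v3 kits. The authors deposited UMI counts of all libraries as 1 matrix without normalization. Its header names Cell Ranger 3.0.2, while the submitters' processing notes name Cell Ranger 2.1.1, Seurat and mm10. The aligner's settings were not given in the sources used here. Cell Ranger counts sense reads, so that overlapping antisense genes are kept apart.

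The study's limits were applied to each barcode: over 200 but under 5000 genes, with mitochondrial UMIs at 10% or less. A class needed at least 2 UMIs over at least 2 genes of its own markers and at most 1 UMI of each other list, with some exceptions. Ccr7, S100a9, Flt3, Zbtb46 and Csf1r were not counted against classes that share them. Xcr1 and Clec9a were not limited in mature DCs, and Cd209a was limited only in T, NK, B and keratin-positive cells. The lists, in which some further genes are not reported here, were Cd3d, Cd3e, Cd3g, Trac (T), Ncr1, Klrb1c, Klre1 (NK), Cd79a, Cd79b, Ms4a1 (B), Siglech, Ccr9, Cox6a2, Klk1 (pDC), Xcr1, Clec9a, Flt3, Zbtb46 (cDC1), Cd209a, Flt3, Zbtb46 (Cd209a+ DC), Csf1r, Adgre1, Fcgr1 (monocyte or macrophage, divided by Ly6c2, Plac8 and Chil3 against C1q genes), and Csf3r, Cxcr2, Retnlg, S100a9 (neutrophil). No doublet caller was run, and cells past these limits on other lists were left out. Levels are CPM of UMIs summed per class and library, with a pseudocount of 1 CPM for log2 ratios. Shares at equal depth used cells thinned at random to 1000 UMIs (also to 2000). Intervals are exact at 95%, and the limit for a count of 0 is 3 counts of the total.

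The members and lists were chosen with earlier results of these data known. The named genes are the 9 ligands, the 3 genes most like each, 13 other ligands and 9 receptors, with Cd40lg counted among the receptors. No test was run. Classes were compared within each library, and the same sign in every library served as a rule of description. The libraries, which the labels place in no group, were counted together whatever the treatment. The summaries over all genes were also run on simulated counts with planted differences. These had 1 depth for every class and library and no variation between libraries beyond counting. They therefore do not cover classes with few UMIs or few libraries, such as neutrophils and cDC1. Gene identifiers were looked up in GENCODE M21, which held 99.62% of them. Scripts ran in Python 3.11.15 with matplotlib 3.10.9, pandas 2.3.3, scipy 1.17.1 and numpy 2.4.6.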

Additional observations from a re-analysis of the deposited data

How the results depend on the processing

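The log2 differences between mature DCs and macrophages, between Cxcl9+ and Arg1+ macrophages, and, for Cd274, Cd80 and Pdcd1lg2, between neutrophils and macrophages were recomputed with stricter gates (at least 3 UMIs), without a limit on other lineages, without the upper gene and mitochondrial limits, with pooled UMIs, with cells thinned to 1000 UMIs, with the mean of each cell's CPM, with at least 50 cells, without library 4, and in libraries 7 to 12. Further alternatives chosen after seeing the data left out barcodes found in more than 1 library, and mature DCs with Col1a1 or without Ccr7 and Ccl22. The number of ligands highest in mature DCs was recomputed with pooled UMIs and with fewer libraries. Of 222 alternative values, 218 moved by less than 1 SD over libraries (for the number of ligands, by less than 1.5 times), and none changed the sign of the median of a difference that had 1 sign in every library. For 3 of these 12 differences the single sign was lost in some libraries under an alternative, namely Nectin2 in mature DCs minus macrophages (higher in 10 of 12 with thinned cells and in 11 of 12 with the mean of each cell's CPM) and, with thinned cells, Cd86 (11 of 12) and Icosl (9 of 12) in Cxcl9+ minus Arg1+ macrophages. The 4 exceptions were, without the upper limits, Cd274 (1.23) and Cd86 (0.59) in mature DCs minus macrophages and, with thinned cells, Pvr (-0.31) and Icosl (0.28) in Cxcl9+ minus Arg1+ macrophages. The cause was not tested. The comparison of keratin-positive cells gave no value under any setting, as no cell passed the gate. The class differences are differences within each library, and no test was run. The depth limits what is said of Nectin2, Icosl and Pdcd1lg2 in neutrophils, B cells, pDCs and cDC1. It also limits what is said of Nectin2 and Icosl in mature DCs and in T or NK cells. Many of these library values rest on fewer than 10 UMIs.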
